A study of Mus musculus with 6 samples.

Results

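The m6A readers are proteins that bind N6-methyladenosine (m6A), a methyl mark inside messenger RNA, and set what happens to the marked transcript. The 10 reader genes described here were taken from a named list, Ythdf1, Ythdf2, Ythdf3, Ythdc1, Ythdc2, Igf2bp1, Igf2bp2, Igf2bp3, Hnrnpa2b1 and Hnrnpc, and all 10 were present among the 25690 rows of the expression table. Hepatic tissue RNA was sequenced from FTO knockout mice, whose deletion is hepatic, and from wild type controls, with 3 libraries in each group, and the study asks how the liver transcriptome differs between them. FTO is an enzyme that removes the m6A mark, so the readers act downstream of the mark that it erases. The strain, age, sex and diet of the mice and the driver of the deletion are not stated in the sources used here. It is also not stated there whether each library came from its own animal, so the p-values cover the spread among these libraries, and that spread may be technical.

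Writers deposit the mark, erasers such as FTO and ALKBH5 remove it, and readers recognise it. Proteins with a YTH domain hold the methylated base in an aromatic cage. In human cells, YTHDF2 brings the CCR4-NOT deadenylase to marked mRNA, which is then degraded, while YTHDF1 and YTHDF3 have been tied to translation and decay. YTHDC1 acts in the nucleus on splicing and export, and YTHDC2 is a helicase known for its role in germ cells of mice. The IGF2BP proteins bind through KH domains and stabilise target mRNAs, and they are known as oncofetal proteins because expression is high in the embryo and in tumours. HNRNPA2B1 and HNRNPC are abundant nuclear RNA-binding proteins, and HNRNPC is held to bind sites that open when nearby RNA is methylated.

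The 3 YTHDF genes are paralogues, so it matters whether reads can tell them apart. Their coding sequences were 62.8% to 67.6% identical in pairwise alignment, and the longest runs that any pair shared without a mismatch are shown here because they show how short the identical coding stretches are.
Ythdf1 and Ythdf2: attgctagcaagcctgcaaaac
Ythdf1 and Ythdf3: aagagctattctgagga
Ythdf2 and Ythdf3: atattggaacttgggat
These runs come from the GENCODE M21 transcripts, 5′ to 3′. The longest, of 22 bases, lies within a coding exon of each gene, at chr2:180911610-180911631 in Ythdf1 and at chr4:132205103-132205124 in Ythdf2, both on the minus strand of GRCm38, the assembly of mm10. The other runs were of 17 bases. No stretch of 50 bases of any reader occurred in another reader. Processed pseudogenes held 7.49% of the 50-base stretches of Ythdf2 and 8.28% of those of Hnrnpc, so the levels of these genes carry that uncertainty. Ythdc1 shared 5.87% of its 50-base stretches with other genes, of which the noncoding gene Gm43055, which overlaps it on the same strand, held 4.23% of the stretches of Ythdc1. Other annotated overlaps were Mir3063 and the antisense gene Gm29202 at Igf2bp1 and the pseudogene Gm18010 at Igf2bp3, and no level of these 4 overlapping genes was used here.

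The upstream regions of Hnrnpc and Hnrnpa2b1 are shown because both genes had higher means in knockout, and those of Ythdf1 and Ythdf2 because the ratio of these paralogues did not overlap between the groups. Each run holds the 250 bases before the RefSeq start, 5′ to 3′ (RefSeq, GRCm38.p6), with CCAAT and GGGCGG, searched on both strands, in capitals.
Hnrnpa2b1: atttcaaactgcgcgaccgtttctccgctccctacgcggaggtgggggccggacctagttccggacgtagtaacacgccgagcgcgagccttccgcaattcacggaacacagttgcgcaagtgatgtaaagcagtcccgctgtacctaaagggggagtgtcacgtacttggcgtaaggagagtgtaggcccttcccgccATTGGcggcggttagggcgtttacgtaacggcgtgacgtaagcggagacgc
Hnrnpc: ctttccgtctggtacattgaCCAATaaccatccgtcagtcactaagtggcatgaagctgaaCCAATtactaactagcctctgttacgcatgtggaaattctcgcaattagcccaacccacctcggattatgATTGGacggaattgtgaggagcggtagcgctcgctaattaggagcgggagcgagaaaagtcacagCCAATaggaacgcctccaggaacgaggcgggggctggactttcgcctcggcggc
Ythdf1: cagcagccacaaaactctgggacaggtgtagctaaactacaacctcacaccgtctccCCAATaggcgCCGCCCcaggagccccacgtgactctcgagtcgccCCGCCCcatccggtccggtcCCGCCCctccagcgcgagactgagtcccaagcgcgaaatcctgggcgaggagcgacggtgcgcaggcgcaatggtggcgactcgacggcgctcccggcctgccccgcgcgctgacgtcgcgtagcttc
Ythdf2: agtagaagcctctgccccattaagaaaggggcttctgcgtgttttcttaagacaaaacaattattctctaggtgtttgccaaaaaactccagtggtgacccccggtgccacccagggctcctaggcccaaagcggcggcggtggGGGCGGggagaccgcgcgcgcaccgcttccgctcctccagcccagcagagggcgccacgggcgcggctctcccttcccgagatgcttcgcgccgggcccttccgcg
The regions are chr6:51469895-51470144, chr14:52104022-52104271, chr2:180920937-180921186 and chr4:132212257-132212506, in that order, all on the minus strand. CCAAT was found 4 times in the Hnrnpc region, 1 time in that of Hnrnpa2b1 and 1 time in that of Ythdf1. GGGCGG was found 3 times upstream of Ythdf1 and 1 time upstream of Ythdf2. TATAAA was found in none of these 4 regions. Of 27025 RefSeq genes, 34.5% held CCAAT, 32.9% held GGGCGG and 13.0% held TATAAA in the same window. CpG dinucleotides numbered 29 for Hnrnpa2b1, 17 for Hnrnpc, 30 for Ythdf1 and 22 for Ythdf2, against a median of 6 over all genes. Among the other matched readers they numbered 30 for Ythdc1, 40 for Igf2bp2 and 21 for Igf2bp3. RefSeq entries were matched for 7 of the 10 readers. These matches describe the letters of the windows and bear no measurement.

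The values are FPKM, fragments per kilobase of transcript scaled to the mapped fragments of the library, so levels of different genes can be set side by side. The depth inferred from the steps between low values was 34140000 to 42530000 fragments per knockout library and 34690000 to 36550000 per wild type library. The value of 42530000 belongs to knockout replicate 3 and was the least certain. Its 10th to 90th percentiles, 28410000 to 43260000, were the widest of all libraries. Fto fell in knockout, at 1.79, 3.83 and 2.66 FPKM in knockout replicates 1, 2 and 3, against 6.67, 6.02 and 6.40 FPKM in wild type replicates 1, 2 and 3 (log2 change -1.0, SE 0.19, limma adjusted p 0.0386). That call was lost without knockout replicate 1 or 3 (adjusted p 0.0662 and 0.146) and without wild type replicate 1 or 2 (0.0804 and 0.113). It was also lost with no filter on low values (0.0975) and after scaling outside the mitochondrial genome (0.0614). The hepatocyte gene Alb, for serum albumin, was at 25046 FPKM or more in 4 libraries and listed at 0 in knockout replicate 3 and wild type replicate 1. Over all 10405 genes tested, 115 were higher and 172 lower in knockout, so that 40.1% of the called genes were higher. That share was 53.9% with the FPKM of each library rescaled to a common sum and 50.9% with scaling outside the mitochondrial genome. The counts were 64 and 65 without knockout replicate 1, 43 and 49 without knockout replicate 3, 62 and 53 without wild type replicate 2, and 312 and 240 without wild type replicate 3. For genes of 5 to 50 FPKM, the median absolute log2 difference of wild type replicate 3 from wild type replicates 1 and 2 was 0.247 and 0.190. It was 0.126 between wild type replicates 1 and 2, the smallest of all pairs within a group, and 0.152 to 0.171 between knockout libraries.

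No change of a reader's messenger RNA was called in FTO knockout liver, and the ratios of group means of the tested readers were 0.914 to 1.21. Of the 10 genes, 6 averaged 1 FPKM or more and entered the fit across all genes. Limma called 0 of them higher, against 1.11% of all tested genes, and 0 of them lower, against 1.65% of all tested genes, or 2.76% in either direction. Hnrnpc was the 1 reader of 6 with an unadjusted p under 0.05, as were 8.65% of all tested genes in the higher and 10% in the lower direction. The log2 change was above 0 for 4 and below 0 for 2 of the 6, with a median of 0.11, beside -0.0018 over all tested genes. In size, regardless of direction, the median was 0.14 for the 6 readers and 0.15 for all tested genes. The largest of the 6 was 0.26, and the 95% intervals of the 6 lay between -0.37 and 0.52, and with 3 libraries per group changes within these intervals were not resolved. In bulk tissue, fewer cells of a type and less RNA per cell cannot be told apart.

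**Figure D1:**
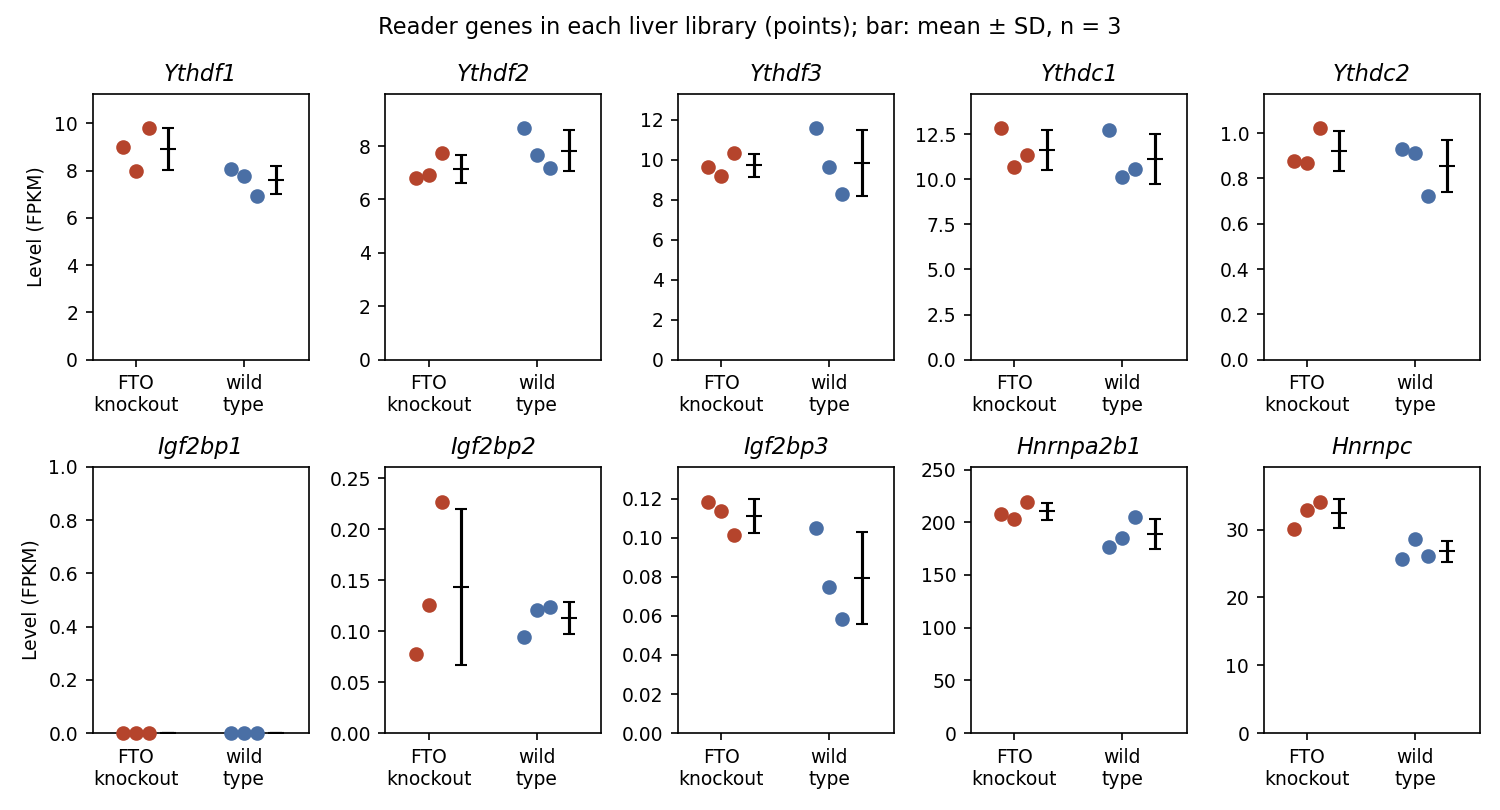
Level of each of the 10 reader genes in FPKM, on axes that start at 0, in the 3 FTO knockout libraries (left, red) and the 3 wild type libraries (right, blue). Points are libraries in the order of their replicate numbers and the black bar is the mean ± SD (n = 3 each); the groups are apart for Hnrnpc alone, at 30.1 FPKM or more in knockout and 28.6 FPKM or less in wild type.

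Among the readers, the HNRNP genes were at the top of the range of levels, most YTH genes in the middle and the IGF2BP genes at the bottom. Hnrnpa2b1 was the most abundant, with a mean of 199.5 FPKM over the 6 libraries, above 95.1% of all tested genes. Hnrnpc followed at 29.6 FPKM, Ythdc1 at 11.4, Ythdf3 at 9.78, Ythdf1 at 8.25 and Ythdf2 at 7.49 FPKM. Ythdc2 averaged 0.888 FPKM, Igf2bp2 0.128 and Igf2bp3 0.0953 FPKM, and Igf2bp1 was listed at 0. The ranges over libraries were apart between Hnrnpa2b1 and Hnrnpc, between Hnrnpc and Ythdc1, between Ythdf2 and Ythdc2 and between Ythdc2 and Igf2bp2. From Ythdc1 down to Ythdf2 the ranges of neighbours overlapped. Within a library, however, Ythdc1 lay above Ythdf3 and Ythdf3 above Ythdf1 in 6 of 6 libraries. Ythdf1 lay above Ythdf2 in 3 of 3 knockout libraries and in 1 of 3 wild type libraries. Igf2bp2 lay above Igf2bp3 in 4 of 6 libraries, so these levels did not have a fixed order.

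Among the cytoplasmic YTHDF readers, Ythdf1 (chr2:180904377-180920949, ENSMUSG00000038848) was at 8.98, 8.0 and 9.79 FPKM in knockout replicates 1, 2 and 3, against 8.07, 7.76 and 6.92 FPKM in wild type replicates 1, 2 and 3. Knockout replicate 2 was just under wild type replicate 1, and the other knockout libraries were above every wild type library. The means were 8.92 ± 0.898 FPKM in knockout and 7.58 ± 0.592 FPKM in wild type (SD, n = 3 each), and the log2 change of 0.21 (SE 0.11, 95% interval -0.06 to 0.47) was not called (limma adjusted p 0.386).

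Ythdf2 (chr4:132184912-132212303, ENSMUSG00000040025), the reader best known for mRNA decay, was at 6.79, 6.92 and 7.75 FPKM in knockout replicates 1, 2 and 3, against wild type levels of 8.67, 7.65 and 7.17 FPKM in the same replicate order. Knockout replicates 1 and 2 lay below all wild type libraries, and knockout replicate 3 lay among them. The log2 change was -0.11 (SE 0.11, 95% interval -0.37 to 0.14, limma adjusted p 0.645). Ythdf3 (chr3:16183212-16217037, ENSMUSG00000047213) was at 9.63, 9.17 and 10.4 FPKM in knockout and at 11.6, 9.66 and 8.29 FPKM in wild type, in replicate order. All 3 knockout libraries lay inside the wild type range, and the change of -0.0070 (SE 0.13, limma adjusted p 0.988) changed sign under other scalings.

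Because a ratio within a library does not depend on scaling between libraries, the makeup of the YTHDF transcripts was also compared. Their sum was 25.4, 24.1 and 27.9 FPKM in knockout replicates 1, 2 and 3 and 28.3, 25.1 and 22.4 FPKM in wild type replicates 1, 2 and 3, with overlapping groups. Ythdf1 made up 35.3%, 33.2% and 35.1% of this sum in knockout and 28.5%, 31.0% and 30.9% in wild type. Every knockout library thus had the larger Ythdf1 share, with a difference of means of 4.43 percentage points, which was 3.61 to 5.10 when any library was left out. Ythdf2 made up 26.7%, 28.7% and 27.8% in knockout and 30.6%, 30.5% and 32% in wild type, a difference of -3.31 percentage points, with every knockout library below every wild type library. The Ythdf3 share overlapped between groups, at 37.7% ± 0.519 in knockout and 38.8% ± 1.95 in wild type (SD, n = 3 each). The shares are parts of 1 sum, so they do not vary independently. For single genes, the groups did not overlap in 24.5% of all tested genes, and no such background was computed for shares.

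Put as a ratio, Ythdf1 over Ythdf2 was 1.32, 1.16 and 1.26 in knockout replicates 1, 2 and 3 and 0.931, 1.01 and 0.966 in wild type replicates 1, 2 and 3. Ythdf1 over Ythdf3 was 0.932, 0.872 and 0.946 in knockout and 0.696, 0.803 and 0.835 in wild type, again with all knockout libraries above. Ythdf3 over Ythdf2 and Hnrnpa2b1 over Hnrnpc overlapped between the groups. These shares and ratios were computed after the levels had been seen and carry no test. No background over other gene pairs was computed for them. Neither Ythdf1 nor Ythdf2 was called on its own, and the pseudogenes that share sequence with Ythdf2 touch its part of the ratio, which was not tested.

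**Figure D2:**
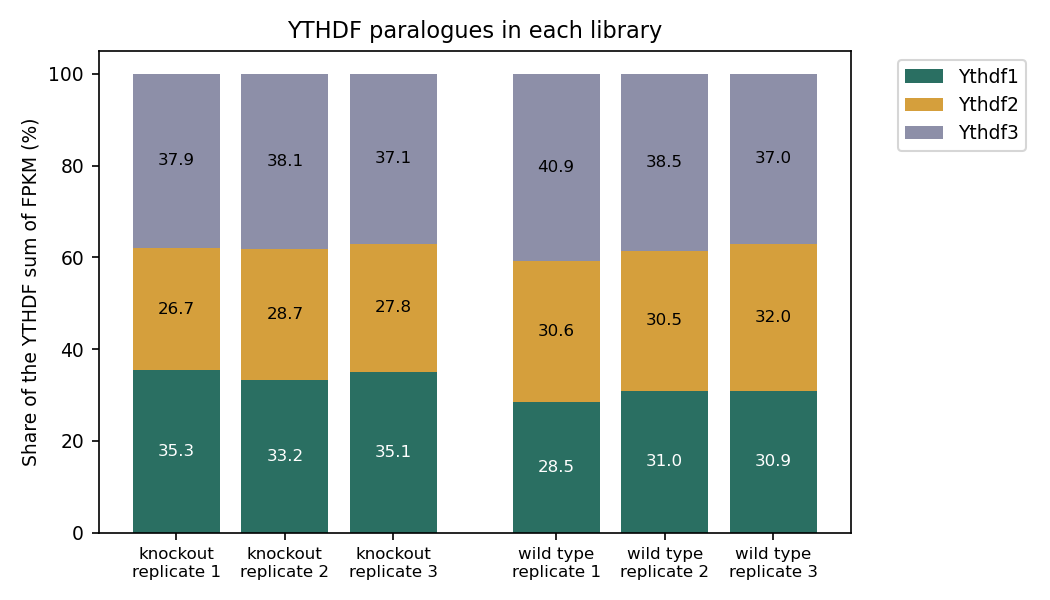
Share of Ythdf1, Ythdf2 and Ythdf3 in their summed FPKM, in percent, as stacked bars for each FTO knockout library (left) and each wild type library (right). Ythdf1 held 33.2% to 35.3% in knockout and 28.5% to 31.0% in wild type, and Ythdf2 held 26.7% to 28.7% in knockout and 30.5% to 32% in wild type.

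Of the YTHDC genes, Ythdc1 (chr5:86804221-86836659, ENSMUSG00000035851), the nuclear reader, was at 12.8, 10.7 and 11.4 FPKM in knockout replicates 1, 2 and 3, against wild type levels of 12.7, 10.1 and 10.5 FPKM in the same replicate order. Replicate 1 was the highest in both groups, though the replicate numbers pair no libraries. The log2 change was 0.06 (SE 0.13, 95% interval -0.23 to 0.35, limma adjusted p 0.854), and it was -0.0071 without knockout replicate 1. Reads of the stretches shared with Gm43055 cannot be told apart from those of Ythdc1. Ythdc2 (ENSMUSG00000034653, chromosome 18) was at 0.876, 0.867 and 1.02 FPKM in knockout and at 0.928, 0.914 and 0.724 FPKM in wild type. Its mean over all libraries, 0.888 FPKM, was under the filter of 1 FPKM. The Ythdc2 groups overlapped (exact permutation test on the difference of means, two-sided p = 0.6, where the smallest possible p with 3 against 3 libraries is 0.1). Ythdc1 made up 92.6% ± 0.937 of the YTHDC sum in knockout and 92.8% ± 0.989 in wild type (SD, n = 3 each).

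The IGF2BP genes were at the bottom of the range. Igf2bp1 (chr11:95957163-96005940, ENSMUSG00000013415) was listed at 0 in all 6 libraries, and a listed 0 can be a failed estimate in this table. Igf2bp2 (chr16:22059009-22163299, ENSMUSG00000033581), which is known for a role in metabolism and diabetes risk, was at 0.0779, 0.125 and 0.227 FPKM in knockout and at 0.0948, 0.121 and 0.124 FPKM in wild type. The knockout libraries held both the lowest and the highest value, so the groups overlapped (two-sided exact permutation p = 0.7). On the longest transcript these levels correspond to about 13 to 48 fragments per library at the inferred depth. The upper figure rests on the depth of knockout replicate 3, which was the least certain.

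Igf2bp3 (chr6:49085223-49214957, ENSMUSG00000029814) was at 0.118, 0.114 and 0.101 FPKM in knockout and at 0.105, 0.0747 and 0.0585 FPKM in wild type, about 9 to 19 fragments per library. Wild type replicate 1 lay above knockout replicate 3, and the two-sided exact permutation p was 0.2. Malsu1, a mitoribosome assembly gene on the opposite strand, overlaps Igf2bp3 and shares 18.1% of its 50-base stretches. Malsu1 was at 31.2, 28.7 and 26.6 FPKM in knockout and at 24.3, 25.6 and 32.3 FPKM in wild type. The sources used here do not say whether the counting used strand, so reads from the shared stretch cannot be told apart and the Igf2bp3 level may include them.

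RNAs of the fetal liver program that IGF2BP proteins are known to bind were low as well. Igf2, the fetal growth factor, was at 0.0681, 0.0687 and 0.0750 FPKM in knockout and at 0.0694, 0.275 and 0.0591 FPKM in wild type. H19, a fetal noncoding RNA, was at 0.0539, 0.319 and 0.0516 FPKM in knockout and at 0, 0.173 and 0.156 FPKM in wild type. Lin28b, a fetal RNA-binding protein gene, was listed at 0 in all 6 libraries. Actb, whose mRNA is a classical target of IGF2BP1, was the 1 of 9 genes of this list that averaged 1 FPKM or more. It was at 69.8, 50.7 and 66.7 FPKM in knockout and at 78.9, 66.9 and 50.9 FPKM in wild type (limma adjusted p 0.908).

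Both HNRNP readers had higher means in knockout. Hnrnpc (chr14:52073377-52104028, ENSMUSG00000060373) was at 30.1, 33.0 and 34.1 FPKM in knockout replicates 1, 2 and 3, against 25.6, 28.6 and 26.2 FPKM in those of wild type. Every knockout library lay above every wild type library, as they did for 11.5% of all tested genes. The means were 32.4 ± 2.08 FPKM in knockout and 26.8 ± 1.58 FPKM in wild type (SD, n = 3 each), a ratio of 1.21. The log2 change of 0.26 (SE 0.11, 95% interval 0.01 to 0.52, unadjusted p 0.0433) was not called (limma adjusted p 0.249). Under the 14 alternative settings its change was 0.23 to 0.34 with adjusted p-values of 0.130 to 0.489.

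Hnrnpa2b1 (chr6:51460932-51469894, ENSMUSG00000004980), a nuclear reader tied to the processing of primary microRNAs, was at 208, 203 and 219 FPKM in knockout and at 177, 185 and 205 FPKM in wild type, in replicate order. Wild type replicate 3 reached the knockout range, just above knockout replicate 2, and the groups therefore overlapped. The log2 change was 0.16 (SE 0.12, 95% interval -0.11 to 0.43, limma adjusted p 0.527). Summed markers of Kupffer cells and macrophages were 285, 212 and 373 FPKM in knockout and 74.4, 126 and 255 FPKM in wild type, so wild type replicate 3 was also the highest of its group there. All 12 genes of that marker list had a change above 0, beside 49.7% of all tested genes. Limma called 0 of them, and 5 were higher at an unadjusted p under 0.05, beside 8.65% of all tested genes. Without wild type replicate 3, 5.32% of all tested genes were called in either direction. In that setting 8 of the 12 were called higher and all 12 had an unadjusted p under 0.05. Without knockout replicate 2 these numbers were 1 and 9, and without knockout replicate 1 or 3 or wild type replicate 1 or 2 there were 0 calls and 1 to 3 genes at an unadjusted p under 0.05. With all 6 libraries, the number at an unadjusted p under 0.05 was 10 with median ratio factors and 11 with quantile normalization. It was 12 with a common sum, 11 with scaling outside the mitochondrial genome and 9 with the length trend removed. With a pseudocount of 0.1 or robust empirical Bayes it was 7, and with no filter 3. Limma called 0 of the 12 in each of these settings. Summed FPKM of 20 ribosomal protein genes was 11178, 10516 and 11218 in knockout and 7161, 7983 and 10320 in wild type. Limma called 0 of these 20 genes. All 20 had a change above 0, beside 49.7% of all tested genes, and the median was 0.385. At an unadjusted p under 0.05, 12 were higher, beside 8.65% of all tested genes. Without wild type replicate 3, 12 were called higher, and 0 without any other single library. The number called higher was 2 with median ratio factors, 7 with quantile normalization and 7 with a common sum. It was 6 with scaling outside the mitochondrial genome and 8 with the length trend removed. Over those settings 2.77% to 4.86% of all tested genes were called in either direction. With a pseudocount of 0.1, no filter or robust empirical Bayes it was 0. The other marker lists differed in how far they moved. Of 9 tested endothelial markers 0 were called and 1 was lower at an unadjusted p under 0.05, beside 10% of all tested genes, with a median log2 change of 0.04. That median was -0.09 without wild type replicate 1 and 0.22 without wild type replicate 3. Of 4 tested stellate cell and fibroblast markers 0 were called and 0 had an unadjusted p under 0.05, with a median of -0.10. Of 9 tested hepatocyte markers, 1 was called higher and 5 were higher at an unadjusted p under 0.05, with a median log2 change of 0.31. Of all tested genes, 1.11% were called higher and 8.65% were higher at an unadjusted p under 0.05. The called gene, Ahsg, for the plasma protein fetuin-A, averaged 4548 ± 292 FPKM in knockout and 2908 ± 46 FPKM in wild type (SD, n = 3 each; limma adjusted p 0.0425), and its call was lost without any 1 library other than wild type replicate 3, and with quantile normalization, scaling outside the mitochondrial genome, no filter or robust empirical Bayes. Of 5 erythroid markers 0 were called and 4 were lower at an unadjusted p under 0.05, beside 10% of all tested genes, with a median log2 change of -0.72. The number lower was 0 without knockout replicate 1 or wild type replicate 2 or 3. It was 1 without knockout replicate 2 or 3, and 5 without wild type replicate 1. With median ratio factors or quantile normalization it was 3, with the length trend removed 5 and with no filter 0. The remaining settings left it at 4. The part of these lists in the level of either HNRNP reader was not tested.

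**Figure D3:**
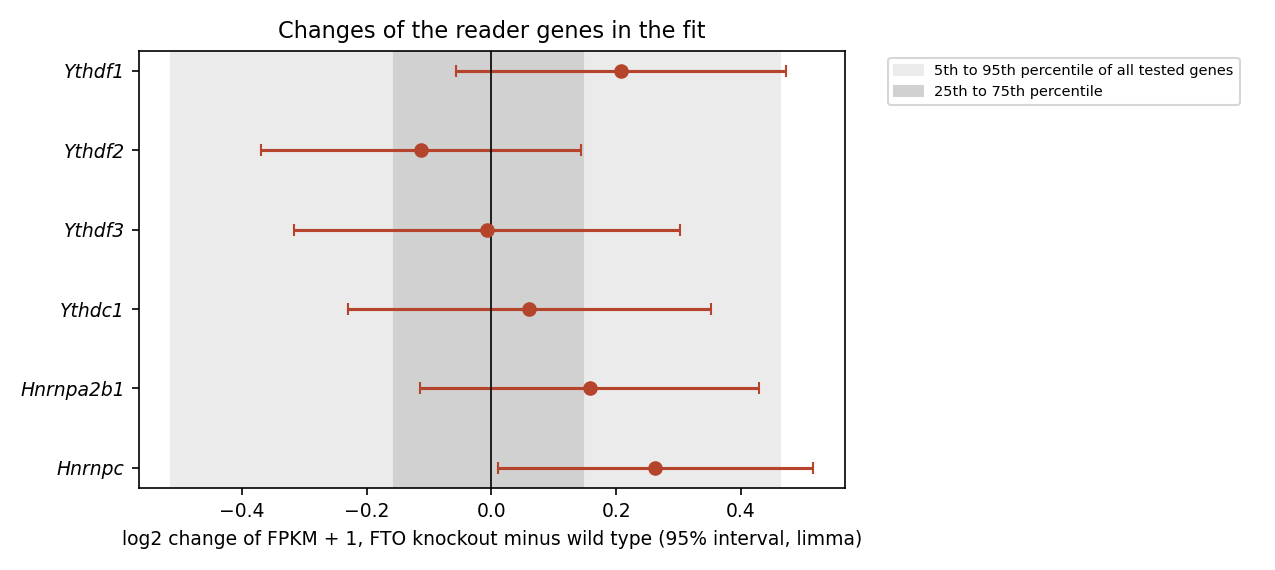
Log2 change of FPKM + 1 (FTO knockout minus wild type) for the 6 reader genes in the fit, as points with 95% limma intervals, over the 25th to 75th (dark grey) and 5th to 95th (light grey) percentiles of all tested genes. All 6 points lie between the 5th (-0.51) and 95th (0.46) percentiles, and the interval of Hnrnpc alone does not include 0.

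Among themselves, the readers did not vary as 1 group across the libraries. Over the 6 libraries, and as a description only, the Pearson correlation of log2(FPKM + 1) was 0.793 between Ythdf2 and Ythdf3, 0.697 between Hnrnpa2b1 and Hnrnpc, 0.056 between Ythdf1 and Ythdf2, and -0.631 between Ythdf2 and Hnrnpa2b1. Across families it was also 0.697 between Ythdf1 and Hnrnpc and 0.616 between Ythdf3 and Ythdc1. All these points share libraries and their scaling. The tested gene most like each reader over the 6 libraries was Nlrp6 for Ythdf1 (r = 0.989), Galnt1 for Ythdf2 (0.992), Cables2 for Ythdf3 (0.998), Smim10l1 for Ythdc1 (0.992), Dab2 for Hnrnpa2b1 (0.996) and Pnp2 for Hnrnpc (0.997). With 6 points such values are common: between 26 and 426 tested genes had a correlation above 0.9 with each reader.

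In the wider m6A pathway 1 gene, Fto, was called. Limma called 0 of 13 writer genes. At that list's unadjusted p under 0.05 there was 1 lower gene and 0 higher, beside 10% and 8.65% of all tested genes. Mettl3, the catalytic subunit, was at 6.94 ± 1.43 FPKM in knockout and 6.31 ± 1.25 FPKM in wild type (SD, n = 3 each). Mettl14, its partner subunit, was at 5.95, 5.10 and 6.98 FPKM in knockout and at 7.51, 7.32 and 7.08 FPKM in wild type, with all knockout libraries below, as for 13.0% of all tested genes, but no call (limma adjusted p 0.323). Mettl5, which methylates ribosomal RNA, was at 15.6 ± 1.29 FPKM in knockout and 21.8 ± 3.76 FPKM in wild type (adjusted p 0.152), and Mettl16 was at 3.91 ± 0.119 and 3.22 ± 0.363 FPKM in the same order (adjusted p 0.316). Of the 2 erasers, Fto fell and Alkbh5 was at 6.21 ± 0.327 FPKM in knockout and 6.12 ± 1.61 FPKM in wild type (adjusted p 0.930).

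With all 6 libraries, genes whose products work with the YTHDF and YTHDC readers were not called either. Of 22 decay partners, chiefly CCR4-NOT subunits and decapping factors, 18 were tested and limma called 0 of them, with a median log2 change of 0.07. At an unadjusted p under 0.05 there was 1 lower gene and 0 higher, beside 10% and 8.65% of all tested genes. Tob1, an adaptor of CCR4-NOT, was that gene, at 27.4, 28.1 and 27.9 FPKM in knockout and at 43.5, 42.6 and 33.7 FPKM in wild type (adjusted p 0.0901). The deadenylase gene Cnot7 was at 20.6 ± 1.06 FPKM in knockout and 15.5 ± 4.57 FPKM in wild type (adjusted p 0.278). Without wild type replicate 3, Cnot7 was called higher (log2 change 0.64, limma adjusted p 0.0236) and Tob1 lower (-0.61, limma adjusted p 0.0199), so 1 library decides both calls. Of 13 genes of eIF3, the initiation factor that YTHDF1 has been tied to, 0 were called. Eif3k was the 1 gene higher at an unadjusted p under 0.05, as were 8.65% of all tested genes. All 13 had changes above 0, beside 49.7% of all tested genes, with a median of 0.15, and 10 of 13 did when knockout replicate 1 or 3 or wild type replicate 2 or 3 was left out. Eif3k was at 78.1 ± 7.36 FPKM in knockout and 62.5 ± 7.55 FPKM in wild type, and Eif3g at 56.6 ± 4.42 and 48.2 ± 2.51 FPKM. Of 8 nuclear partners of YTHDC1, 0 were called and 1 was higher at an unadjusted p under 0.05, beside 8.65% of all tested genes. That gene, the export cofactor gene Nxt1, was at 7.64 ± 0.727 FPKM in knockout and 6.01 ± 0.794 FPKM in wild type (limma adjusted p 0.245). The splicing factor gene Srsf3 was at 11.6 ± 4.63 FPKM in knockout and 13.9 ± 2.01 FPKM in wild type (SD, n = 3 each).

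Lists tied to the other families held no called gene either. Of 23 other HNRNP genes 0 were called by limma and 1 was higher at an unadjusted p under 0.05 (Hnrnpl), beside 8.65% of all tested genes. Of the 23, 20 had a change above 0, beside 49.7% of all tested genes, with a median of 0.14. That count was 17 without wild type replicate 3 and 20 or 21 without any other single library. The ribosomal protein sums given above were higher in every knockout library than in every wild type library, and their part in these counts was not tested. The splicing regulator genes Hnrnpl and Ptbp1 lay above wild type in all knockout libraries, as did 11.5% of all tested genes. They were at 34.6 ± 4.29 and 41.2 ± 3.07 FPKM in knockout and 26.7 ± 2.82 and 33.7 ± 4.26 FPKM in wild type (limma adjusted p 0.209 and 0.298). Of 9 other proposed m6A-binding proteins 0 were called and 2 were higher at an unadjusted p under 0.05, beside 8.65% of all tested genes. These were Lrpprc, an RNA-binding protein of mitochondria, and Fxr1, a relative of the fragile X protein. Lrpprc was at 26.2 ± 1.08 FPKM in knockout and 20.3 ± 2.45 FPKM in wild type (adjusted p 0.168), and Fxr1 at 22.4 ± 1.57 and 18.2 ± 2.08 FPKM (adjusted p 0.260). Of 7 genes of IGF2BP complexes 0 were called, with 0 at an unadjusted p under 0.05, and Matr3 and Syncrip had the smallest p-values (adjusted p 0.459 and 0.589). Of the microRNA processor, which HNRNPA2B1 has been tied to, Dgcr8 was at 3.05, 2.64 and 2.87 FPKM in knockout and at 2.39, 2.1 and 2.04 FPKM in wild type. All knockout libraries lay above, as for 11.5% of all tested genes, but there was no call (limma adjusted p 0.199). Drosha was at 1.69 ± 0.246 FPKM in knockout and 1.80 ± 0.127 FPKM in wild type (SD, n = 3 each; adjusted p 0.830).

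**Figure D4:**
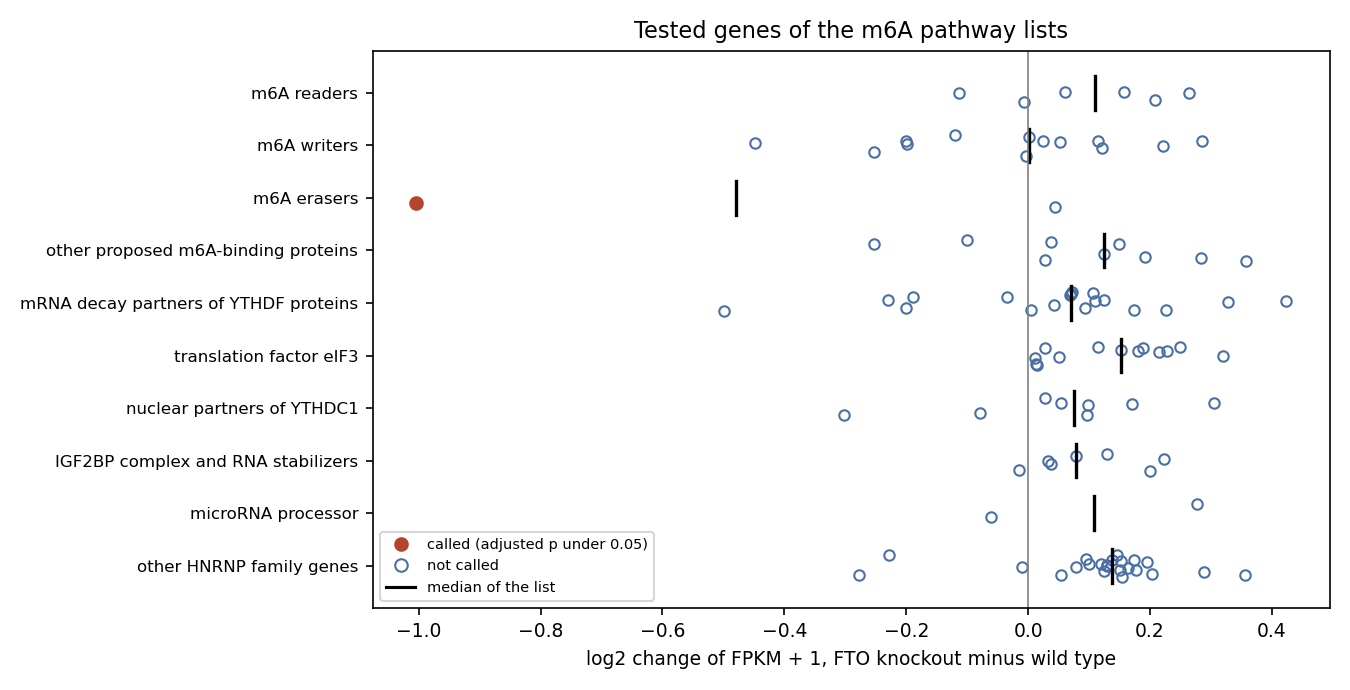
Log2 change of FPKM + 1 (FTO knockout minus wild type) of each tested gene in the reader list and in the other lists of the m6A pathway, 1 row per list, with the list's median as a black line. Fto, at -1.0 among the erasers, is the called gene, and all other points lie between -0.50 and 0.42.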

How the data were processed

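RNA of hepatic tissue was measured by RNA sequencing in 3 FTO knockout and 3 wild type libraries, grouped by the genotype label; replicate numbers follow sample order and pair no libraries. The authors deposited 1 table of FPKM values; the unit rests on the values and on the submitters' processing notes, which name TopHat2 2.1.0, HTSeq, Cufflinks 2.2.1 and mm10 without roles. Of the values above 0, 50.7% had more than 6 significant digits, and doubling left at most 6 digits in 63.4% of these, as means of 2 values would do; the sources used here do not say what was averaged. Symbols, coordinates and lengths came from GENCODE M21 (GRCm38), which matched 24853 of 25690 rows.

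Limma 3.58.1 (R 4.3.3; lmFit, eBayes with trend, two-sided) was fitted to log2(FPKM + 1) of the 10405 genes that averaged 1 FPKM or more across the 6 libraries; the fit was tested on simulated data. Calls required a Benjamini-Hochberg adjusted p under 0.05 over all these genes. Log2 changes on this scale understate the change of low genes. Readers under the filter were tested by exact permutation (scipy 1.17.1; 20 splits). Depth was inferred from 964 single-transcript genes of 3000 to 8000 bases, taking a value as 1 fragment where that gave 25000000 to 50000000 fragments; counts were not recovered, so no count model was used. Sequence sharing was counted over 50-base stretches of GENCODE transcripts on both strands.

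The reader genes, the other lists and their settings were chosen with earlier results of these data known. Named genes are the 10 readers, Fto, Alkbh5, Mettl3, Mettl14, every called member and the 2 members with the smallest p of each other m6A pathway list, the most alike gene per reader, genes that overlap a reader, and Alb; Ahsg, Igf2, H19 and Lin28b were chosen after their values were seen. Clec4f, a tissue check of Kupffer cells, was at 50.6 ± 12.5 FPKM in knockout and 30.5 ± 16.8 FPKM in wild type (SD, n = 3 each).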

Additional observations from a re-analysis of the deposited data

How the results depend on the processing

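The count of readers called was 0 in either direction under all 14 alternatives: median ratio size factors, quantile normalization, rescaling to a common sum, scaling outside the mitochondrial genome, a pseudocount of 0.1, no filter, robust empirical Bayes, removal of a transcript length trend, and leaving out each of the 6 libraries. At an unadjusted p under 0.05 it was 0 with scaling outside the mitochondrial genome and without knockout replicate 2 or 3 or any wild type replicate, and 1 otherwise. Over these settings the log2 change was 0.15 to 0.28 for Ythdf1, -0.17 to -0.05 for Ythdf2 and 0.11 to 0.24 for Hnrnpa2b1. The change of Ythdf3 turned to 0.0029 with median ratio factors, 0.010 with quantile normalization, 0.063 with a common sum, 0.033 with scaling outside the mitochondrial genome, and 0.0015 with the length trend removed, and ran from -0.11 to 0.11 with single libraries left out. That of Ythdc1 ran from -0.0071 to 0.15 with single libraries left out. The cause was not tested. Of the other m6A pathway lists, beside Fto, Cnot7 and Tob1 were called in any of the 14 alternatives, both without wild type replicate 3. The Ythdf1 share difference ran from 3.61 to 5.10, that of Ythdf2 from -3.79 to -2.80 and that of Ythdf3 from -2.01 to -0.08 percentage points with single libraries left out.

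Over all genes, 180 were higher with quantile normalization, 196 with a common sum and 216 with the length trend removed; 290 were lower with the length trend removed and 93 with no filter, which tests 18965 genes. With single libraries left out, 43 to 312 were higher and 49 to 240 lower. No paired analysis was possible because the replicate numbers follow sample order and the labels name no shared animal, litter or day. With 3 libraries per group and levels near 0.1 FPKM, differences in Igf2bp2 and Igf2bp3 could not be resolved.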
